A study of Mus musculus with 72 samples.

Results

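The nuclear fraction of mouse embryonic stem cells was compared after long and short exposure to 4-thiouridine (4sU), a uridine analog that cells build into new RNA and that is afterwards read as C in place of T. The members are the 4 nuclear libraries of replicates 3 and 4 that were labeled for 120 min or for 20 min, 2 at each time, of 18 nuclear libraries and 72 libraries in all. Of 51826 genes with read counts, 17810 passed a filter on low counts and were tested. The question was which poly(A) RNAs had a different nuclear level, as measured by all reads whether or not they carried conversions, at 120 min.

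All cells were E14TG2a, a single embryonic stem cell line of mouse, grown on gelatin in serum-containing medium with the inhibitors CHIR99021 and PD0325901 and leukemia inhibitory factor ("2i + LIF"). Every library of either time came from 4sU-treated cells that were extracted in steps with detergent in the presence of cycloheximide, and the nuclei were passed through a sucrose cushion. The labels give 500 µM 4sU at 20 min and 100 µM at 120 min. The study's methods, in contrast, treat these replicates at both times as labeled with the higher dose. They report many changed genes in whole-cell RNA after long labeling at that dose, against unlabeled cells, and exclude such samples. If the higher dose holds, the late libraries compared here are of that kind. The study also found the gene Kantr changed at that dose after a shorter labeling and left it out. The conversion rate that comes with the files, the estimated share of T positions of new RNA read as C, was 10.4% and 12.2% in the 2 libraries of 120 min and 3.37% and 3.56% in those of 20 min. At the labelled dose and time of the 120 min libraries, replicates 5 and 6 had 3.81% and 3.96%. For the libraries set beside the comparison, the labels give 500 µM at 40 min and 100 µM at 60 min in replicates 3 and 4. In replicates 5 and 6 they give 100 µM at both 60 and 120 min. The study's methods list 60 min replicates at 500 µM as well as at 100 µM, so the label of replicates 3 and 4 is in doubt there too. Their conversion rate at 60 min was 7.66% and 8.29%, against 3.25% and 3.53% in replicates 5 and 6 with the same label. Time and dose cannot be told apart from the labels alone. The 2 replicates of each time are described as independently passaged cultures of 1 line, and each change is one between 2 labeled states, since unlabeled cells were not used here.

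A nuclear transcript level is set by how fast a gene is transcribed, how fast the transcript is processed and exported, and how much is degraded before export. Stable transcripts of which a large pool sits in the cytosol can be rare in the nucleus, while many noncoding RNAs and zinc finger mRNAs are known to stay there. A known response of cells to modified nucleosides and to damage of DNA or of the nucleolus is the stabilization of p53, a transcription factor that switches on cell cycle inhibitors and its own negative regulator.

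The libraries held 14384152 reads on genes (120 min, replicate 3), 22811132 (120 min, replicate 4), 18138975 (20 min, replicate 3) and 52975732 (20 min, replicate 4), the latter being the deepest. Of T positions sequenced in exons and introns, introns took 29.5% and 23.1% at 120 min and 40.0% and 29.1% at 20 min. Reads of mitochondrial genes amounted to 0.959% and 0.401% of those of nuclear genes at 120 min and to 0.572% and 0.548% at 20 min. Stem cell identity was clear in every library. Pou5f1, the gene of the factor OCT4, lay between 402 and 801 CPM (counts scaled to a fixed library size after TMM normalization), Nanog between 439 and 591, Sox2 between 220 and 329, Esrrb between 596 and 856, and Zfp42 between 534 and 736. Markers of other cell types were low. The summed level of 6 primitive endoderm markers was 6.16 to 7.36 CPM, that of 3 tested mesoderm markers 1.42 to 1.91 CPM and that of 2 tested fibroblast markers 1.29 to 3.69 CPM, with Postn, Lum and Dcn at 0 in all 4 libraries. The 3 tested markers of 2-cell-like cells summed to 3.47 to 5.06 CPM. Higher sums belonged to lists with a gene that stem cells use as well, namely 95.3 to 108 CPM for trophectoderm (Tfap2c 87.9 to 102), 69.0 to 123 CPM for neuroectoderm (Nes 46.6 to 106) and 140 to 239 CPM for primed epiblast (Dnmt3b 132 to 236). In edgeR's quasi-likelihood test, 0 markers of these 7 lists were called. Of them 1 neuroectoderm, 1 primitive endoderm and 1 primed epiblast marker had an unadjusted p under 0.05, and DESeq2 called 1 neuroectoderm marker.

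Between 120 and 20 min, 277 genes rose and 241 fell, which is 1.56% and 1.35% of the genes tested (2.91% together). A gene counted as called at an adjusted p under 0.05 and a log2 fold change of more than 0.5 in either direction, and 3870 genes had an unadjusted p under 0.05. The kinds of genes differed between the directions. Pseudogenes made up 146 of the genes that rose (11.7% of 1251 tested) and 6 of those that fell (0.48%). These 146 were low, with medians of 0.55 CPM at 20 min and 2.64 CPM at 120 min. How many passed the filter only through the 120 min libraries was not tested, and the origin of their reads is uncertain. With 1 CPM required in all 4 libraries, 144 genes of any kind rose and 222 fell. Of 14044 protein-coding genes, 122 rose (0.869%) and 182 fell (1.3%), and of 2486 other noncoding genes 9 rose (0.362%) and 52 fell (2.09%). The median change over all genes was 0.02 on the log2 scale. In such bulk samples fewer cells of a type and less RNA per cell cannot be told apart, and all levels are relative to the other RNA of the library.

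How many genes were called rested on the spread taken from the other nuclear libraries and on single libraries. With the 4 libraries alone 13 genes were called, and without replicate 4 of 120 min or replicate 3 of 20 min the count was 35 and 27, respectively.

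**Figure D1:**
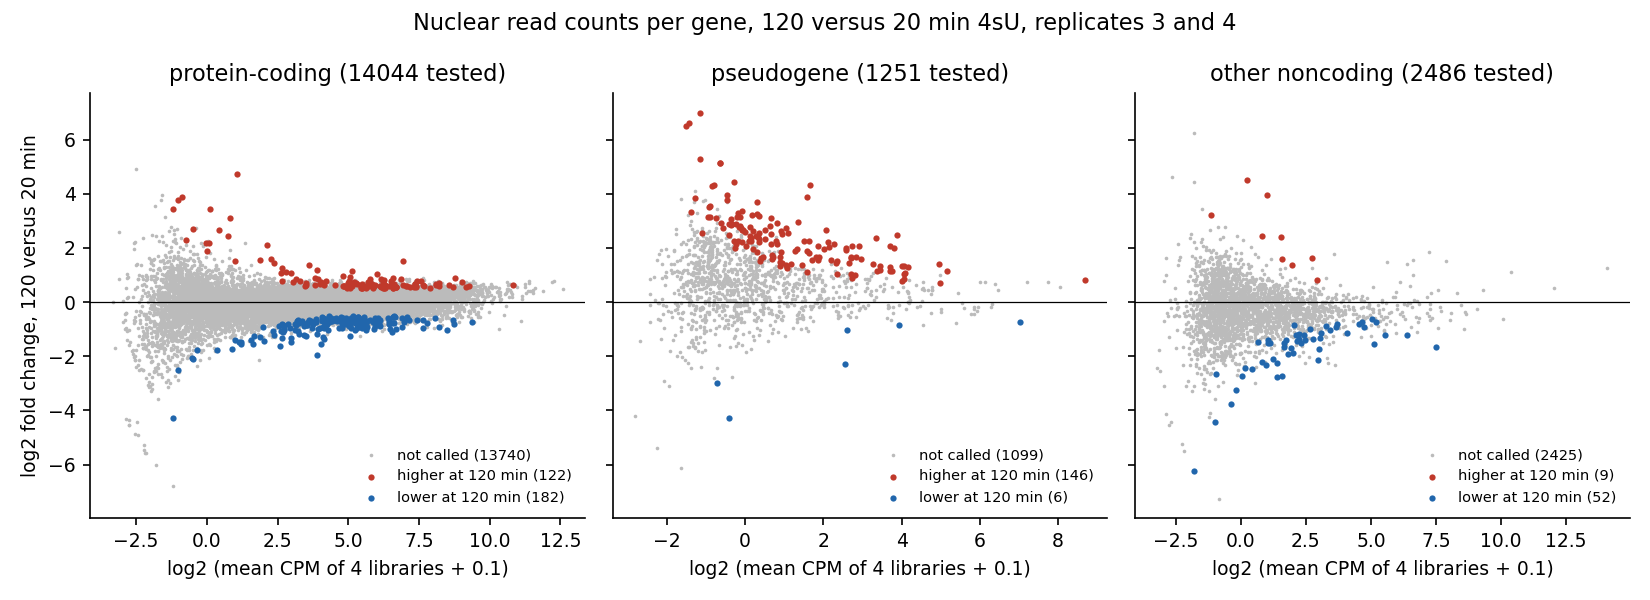
Log2 fold change between 120 and 20 min (y axis) against the log2 of the mean normalized CPM of the 4 libraries plus 0.1 (x axis), 1 point per gene, for protein-coding genes, pseudogenes and other noncoding genes. Red points rose and blue points fell. The 146 pseudogenes that rose stand above a cloud that itself lies mostly above 0, and the 52 noncoding genes that fell outnumber the 9 that rose.

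Of the protein-coding genes that rose with the smallest p, Plk2 and Btg2 are known p53 targets. Plk2, a polo-like kinase induced by p53, was at 64.8 and 59.7 CPM at 20 min and at 172 and 189 CPM at 120 min in replicates 3 and 4. Both libraries of 120 min lay far above both of 20 min, and Plk2 rose by a log2 fold change of 1.54 ± 0.21 (SE, 2 libraries against 2; adjusted p = 0.00186). Btg2, an antiproliferative cofactor of mRNA deadenylation, stood at 43.3 and 40.8 CPM at 20 min and at 86.5 and 86.3 CPM at 120 min. The groups did not overlap (log2 fold change 1.04 ± 0.12, adjusted p = 0.000804). At 40 and 60 min, Btg2 held intermediate levels of 54.8 to 59.6 CPM, while Plk2 with 73.7 to 84.1 CPM was still near its level of 20 min.

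Fzd10, a Wnt receptor, had 19.0 and 24.3 CPM at 20 min and 48.9 and 47.6 CPM at 120 min (1.15 ± 0.16, adjusted p = 0.00217). Its libraries of 40 and 60 min (23.9 to 30.0 CPM) overlapped those of 20 min, and those of 120 min were the highest among these 8 libraries. Rpusd2, which belongs to the pseudouridine synthases, rose from 23.9 and 22.5 to 40.6 and 46.9 CPM (0.92 ± 0.14, adjusted p = 0.00449). Ak1, an adenylate kinase that balances adenine nucleotides, went from 58.7 and 74.7 to 123 and 127 CPM (0.90 ± 0.14, adjusted p = 0.00542), and Lrba, a large protein of vesicle trafficking, from 39.4 and 38.2 to 63.3 and 76.8 CPM (0.85 ± 0.14, adjusted p = 0.0077). In each of these genes both libraries of 120 min were above both of 20 min, as were the 2 groups, in one order or the other, in 47.4% of all genes tested. Lsmem1, which encodes a small leucine-rich membrane protein, showed the steepest rise of any protein-coding gene named here. It had 4 and 6 reads at 20 min (0.206 and 0.104 CPM) and 67 and 64 reads at 120 min (4.57 and 3.04 CPM), with 0.296 to 0.988 CPM at 40 and 60 min (log2 fold change 4.73 ± 0.56, adjusted p = 0.000874). Its levels at 20 min lay below the filter on low counts, so it passed through other libraries. It was not tested where 1 CPM in all 4 libraries was required.

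**Figure D2:**
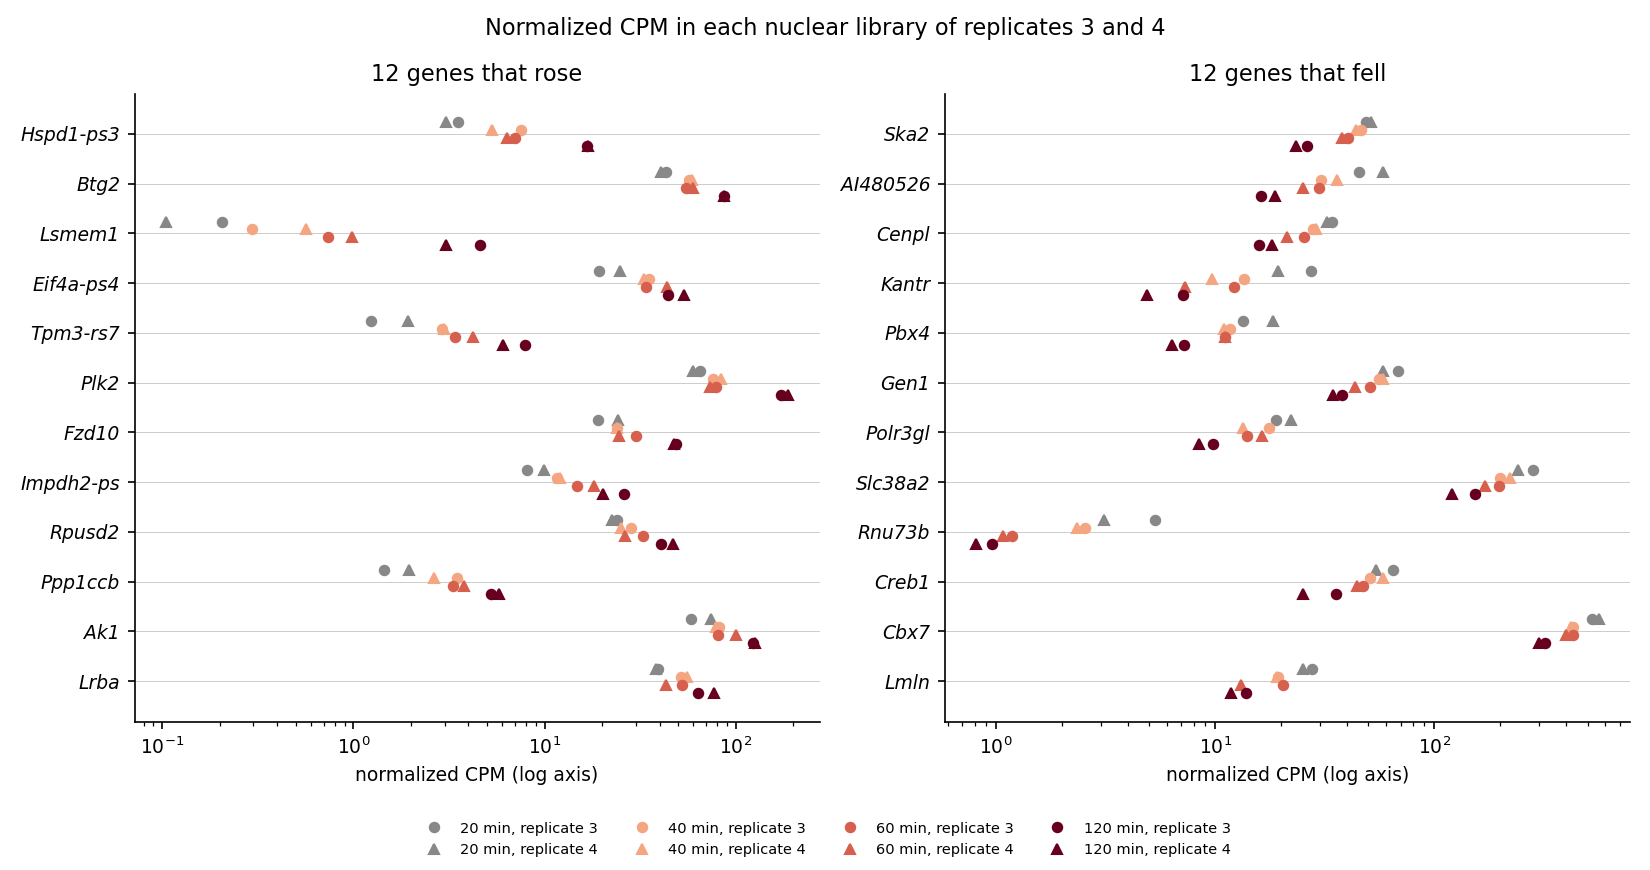
Normalized CPM (log axis) of the 12 genes that rose and the 12 that fell with the smallest p, in each nuclear library of replicates 3 (circles) and 4 (triangles) at 20, 40, 60 and 120 min. The libraries of 120 min (darkest) are set apart from those of 20 min (gray) in all 24 genes, which their choice by p favours. Those of 40 and 60 min mostly lie between them. Plk2 and Fzd10 stay near the 20 min level until 60 min.

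The protein-coding gene that fell with the smallest p was Ska2. This gene of a subunit of the complex that ties kinetochores to microtubules was at 48.5 and 51.4 CPM at 20 min and at 26.1 and 23.3 CPM at 120 min. That is a fall by 1.02 ± 0.12 on the log2 scale (adjusted p = 0.000804), with 37.8 to 46.4 CPM in the 4 libraries of 40 and 60 min. Cenpl, a centromere protein, stood at 34.1 and 32.4 CPM and at 15.9 and 18.05 CPM at the 2 times (fold change -0.97 ± 0.13 in log2, adjusted p = 0.00171). Gen1, a nuclease that resolves recombination intermediates, had 67.8 and 58.2 CPM and then 37.7 and 34.4 CPM (-0.80 ± 0.13, adjusted p = 0.00542). In none of the 3 genes did the groups overlap. These genes were picked by p from this comparison, and in 47.4% of all genes tested the groups did not overlap.

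Cbx7, a chromodomain subunit of Polycomb repressive complexes and among the more abundant genes that fell, was at 526 and 562 CPM at 20 min, at 427 and 420 CPM at 40 min and at 320 and 300 CPM at 120 min (-0.81 ± 0.14, adjusted p = 0.00921). Creb1, the transcription factor that answers to cyclic AMP, fell from 64.8 and 54.1 to 35.6 and 25.2 CPM (-0.97 ± 0.17, adjusted p = 0.00871), and Pbx4, a homeodomain factor, from 13.3 and 18.4 to 7.17 and 6.36 CPM (-1.24 ± 0.19, adjusted p = 0.0045). Polr3gl, a subunit of RNA polymerase III, fell from 18.9 and 22.1 to 9.76 and 8.41 CPM (-1.18 ± 0.19, adjusted p = 0.00636). Slc38a2, a transporter of neutral amino acids, was at 283 and 240 CPM at 20 min and at 153 and 120 CPM at 120 min (-0.94 ± 0.15, adjusted p = 0.00683). Lmln, a leishmanolysin-like peptidase, had 27.5 and 25.1 CPM and 13.8 and 11.8 CPM, respectively (-1.04 ± 0.18, adjusted p = 0.00966). In none of these genes did a library of 120 min reach the lower of the 2 libraries of 20 min. Their choice by p from this comparison favours such a gap, and in 47.4% of all genes tested the groups did not overlap.

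Long noncoding RNAs were among the largest falls. AI480526, a long intergenic RNA, was at 45.1 and 58.2 CPM at 20 min and at 16.1 and 18.8 CPM at 120 min (log2 fold change -1.56 ± 0.20, adjusted p = 0.00116). Among the genes that fell in the plot of single genes, only AI480526 kept its call in every alternative run that gave it a value. Kantr, a transcript annotated as protein-coding and better known as a long noncoding RNA, had 27.2 and 19.4 CPM at 20 min and 7.10 and 4.89 CPM at 120 min, the lowest levels among the 8 libraries of replicates 3 and 4 (-1.97 ± 0.30, adjusted p = 0.0038). Neat1, the scaffold RNA of paraspeckles, went from 272 and 281 to 105 and 72.1 CPM (-1.64 ± 0.39, adjusted p = 0.0365). Of 17 tested nuclear long noncoding RNAs on the list, these latter 2 fell and 0 rose, 16 had values below 0, and the median was -0.44. Meg3 missed the test with 496 and 424 CPM at 20 min and 371 and 309 CPM at 120 min (-0.44 ± 0.16, adjusted p = 0.128). Rnu73b, a small nucleolar RNA whose short and mostly unadenylated product is poorly caught in poly(A) libraries, stood at 5.31 and 3.11 CPM and at 0.955 and 0.807 CPM (-2.24 ± 0.37, adjusted p = 0.00769). By annotation, 12 of 515 long intergenic RNAs fell (2.33%, against 1.35% of all genes) and 4 rose, with a median of -0.26. Of 428 antisense RNAs, 6 fell (1.4%, near the share of all genes) and 0 rose, with a median of -0.25. The libraries were strand-specific, and the study's methods name default parameters in the sentence on counting, under which HTSeq counts by strand. Whether they applied to the counts used here was not tested, and antisense RNAs may share reads with the genes they overlap.

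Targets of p53 made up a visible group among the genes that rose. Of 34 listed targets, all of which were tested, 10 rose (29.4%, against 1.56% of all genes), Plk2 and Btg2 among them, and 1 fell, and the median of all 34 was 0.29, against 0.02 over all genes. The list was drawn up with earlier results of these data known and gets no test of its own. Mdm2, the ubiquitin ligase that degrades p53, was at 334 and 271 CPM at 20 min and at 611 and 518 CPM at 120 min (0.90 ± 0.18, adjusted p = 0.0205). Its libraries of 40 and 60 min, at 242 to 353 CPM, overlapped those of 20 min. Cdkn1a, which encodes the cell cycle inhibitor p21, was at 54.7 and 57.5 CPM and at 86.5 and 100 CPM (0.73 ± 0.15, adjusted p = 0.022).

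Targets of cell death and of growth signaling rose as well. Bbc3, which encodes the pro-apoptotic protein PUMA, had 28.8 and 32.8 CPM at 20 min and 49.1 and 48.8 CPM at 120 min (0.67 ± 0.17, adjusted p = 0.0434). Phlda3, an inhibitor of AKT signaling, stood at 51.7 and 60.2 CPM and at 91.9 and 104 CPM (0.81 ± 0.16, adjusted p = 0.0143). Ddit4l and Sesn2, which dampen mTOR signaling, reached 36.2 and 38.0 CPM from 18.5 and 19.2 CPM (0.97 ± 0.17, adjusted p = 0.00987) and 354 and 348 CPM from 241 and 227 CPM (0.59 ± 0.14, adjusted p = 0.0421). Aen, a nuclease induced by p53, and Rap2b, a small GTPase, rose by 0.59 ± 0.13 and 0.69 ± 0.17 on the log2 scale (adjusted p = 0.03 and 0.0379). The exception was Rrm2b, the p53-inducible subunit of ribonucleotide reductase, which fell from 9.75 and 10.5 to 4.78 and 5.65 CPM (-0.95 ± 0.22, adjusted p = 0.032). The number of targets that rose was 2 without replicate 4 of 120 min or without replicate 3 of 20 min, 4 without replicate 4 of 20 min, and 1 in a fit of the 4 libraries alone, whereas DESeq2 called 11. The call of Rrm2b was lost whenever any 1 of the 4 libraries was left out.

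Replicates 5 and 6, whose libraries of 120 and 60 min enter none of the fold changes above, had a median change of 0.17 for the 34 targets, against 0.00 over all genes. Plk2 had 69.3 and 69.7 CPM at 60 min and 108 and 104 CPM at 120 min in these replicates (0.61 ± 0.21), and Mdm2 190 and 205 CPM and then 298 and 294 CPM (0.58 ± 0.18). Btg2 had 64.2 and 60.9 CPM and then 84.3 and 84.6 CPM (0.43 ± 0.12). The 2 libraries of 120 min were above those of 60 min in each of the 3 genes. Across all genes, 0 were called in this comparison by edgeR, 0 by DESeq2 and 0 with the replicate number as a block, with 348 genes at an unadjusted p under 0.05, so that these values are descriptions only.

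**Figure D3:**
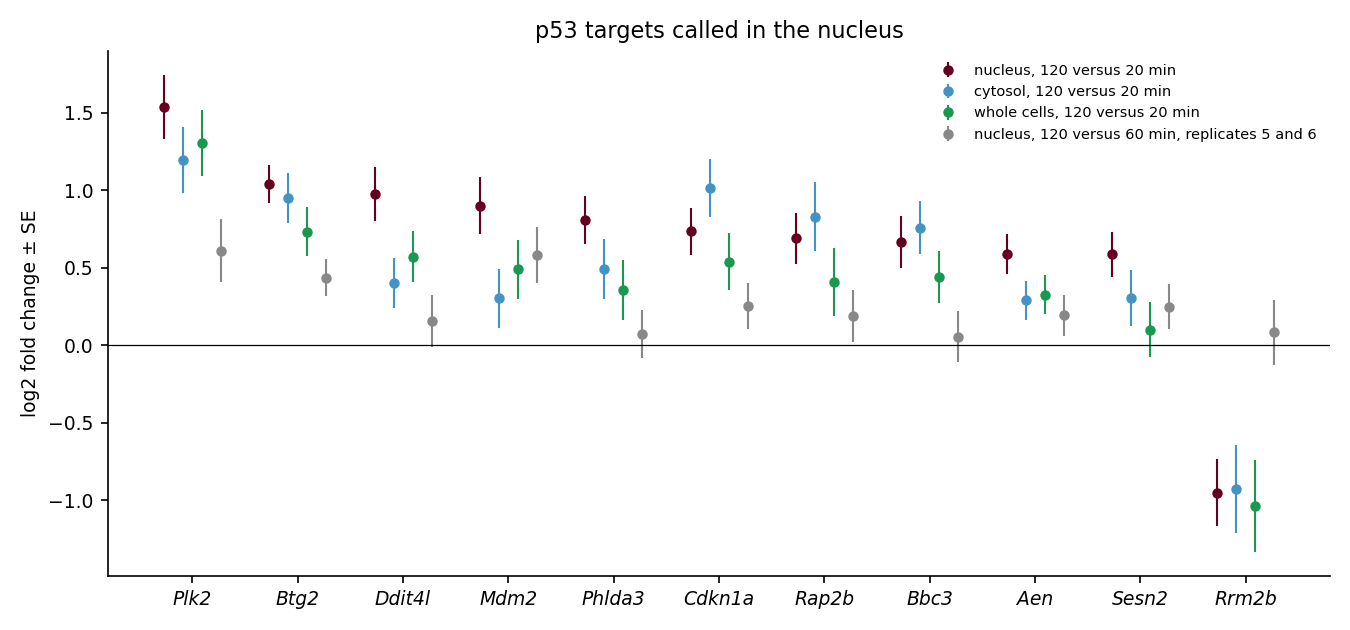
Log2 fold change ± SE of the 11 p53 targets called in the nucleus, between 120 and 20 min in nucleus, cytosol and whole cells (replicates 3 and 4) and between 120 and 60 min in the nucleus (replicates 5 and 6). The 10 targets that rose in the nucleus lie above 0 in each of the 4 comparisons, and Rrm2b lies below 0 in all but that of replicates 5 and 6. Over all 34 listed targets, the median between 120 and 20 min was 0.29 in the nucleus, 0.09 in the cytosol and 0.06 in whole cells. In the membrane fraction, which is not shown, it was -0.0005.

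Other stress programs had 0 or 1 call per list in edgeR. Of all 17810 genes tested, edgeR called 1.56% higher and 1.35% lower. DESeq2 called 490 of them higher and 485 lower, and 3870 had an unadjusted p under 0.05. Counts of all lists are to be read against these. In short lists 1 call is a larger share, 5.88% of heat shock, 4.76% of integrated stress response and 3.7% of immediate early genes. Among 17 heat shock genes Dnajb1, an HSP40 co-chaperone, was the only one that rose in edgeR, from 31.5 and 36.5 to 47.9 and 60.8 CPM (0.68 ± 0.15, adjusted p = 0.03), with a median of 0.41 for the list. DESeq2 called 3 of them higher, and 6 had an unadjusted p under 0.05 with a positive change. The mitochondrial chaperone Hspd1 had 853 and 894 CPM at 20 min and 1151 and 1456 CPM at 120 min, which missed the test (0.58 ± 0.18, adjusted p = 0.0832), and Hsp90ab1 had a change of 0.77 ± 0.27 (adjusted p = 0.117). Of 21 genes of the integrated stress response, Stc2, a secreted glycoprotein, was the only one called by edgeR and fell from 8.25 and 8.87 to 5.19 and 3.56 CPM (-0.98 ± 0.22, adjusted p = 0.03). DESeq2 called 1 higher and 1 lower, and at an unadjusted p under 0.05 it was 6 higher and 4 lower. Ddit4, an inhibitor of mTOR, had values of 12.3 and 12.1 CPM and of 15.97 and 23.5 CPM (0.70 ± 0.19, adjusted p = 0.0593). In edgeR, 0 of 15 genes of the unfolded protein response and 0 of 12 oxidative stress genes were called, as in DESeq2, with 1 and 6 genes at an unadjusted p under 0.05, and their medians were 0.05 and 0.40. Immediate early genes, the first to answer growth factors, had 1 call in 27, in which Ccn2, a matricellular protein, fell from 17.8 and 16.1 to 10.6 and 7.17 CPM (-0.94 ± 0.24, adjusted p = 0.0497).

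In the genes of stem cell identity no read count passed the test. Of 21 pluripotency factors 0 were called by edgeR or DESeq2, and the median was 0.01. An unadjusted p under 0.05 was found for 4, against 3870 of all 17810 genes tested. Klf5 had a change of 0.45 ± 0.17 (adjusted p = 0.134), Zfp42 one of -0.37 ± 0.13 (adjusted p = 0.116) and Prdm14 one of -0.32 ± 0.12 (adjusted p = 0.133). Id3, a BMP target that blocks helix-loop-helix factors, was the only call among 13 TGF-beta and BMP targets. It was at 22.0 and 22.7 CPM at 20 min and still at 21.6 to 28.3 CPM at 40 and 60 min, and it fell to 13.7 and 9.97 CPM at 120 min (-0.92 ± 0.18, adjusted p = 0.0157). In replicates 5 and 6 Id3 had 8.29 and 8.40 CPM at 60 min and 5.12 and 5.48 CPM at 120 min (-0.65 ± 0.19). Of 13 feedback genes of LIF and FGF signaling, 0 were called by edgeR or DESeq2, and 2 had an unadjusted p under 0.05.

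Genes of RNA processing had low medians, with 0 or 1 call per list in edgeR. Of 20 genes of SR proteins and Clk kinases, which steer splice site choice, only Srsf11 fell, from 442 and 322 to 224 and 181 CPM (-0.92 ± 0.21, adjusted p = 0.0324), while 11 had an unadjusted p under 0.05 with a negative change and DESeq2 called 6 lower. The median of the list was -0.42. Srsf2 had 1028 and 892 CPM at 20 min and 706 and 599 CPM at 120 min (-0.56 ± 0.16, adjusted p = 0.0678). For the kinase Clk4 the values were 101 and 80.6 CPM and 67.2 and 44.8 CPM (-0.70 ± 0.22, adjusted p = 0.0862). Host transcripts of small nucleolar RNAs had a median of -0.52, with 0 of 15 called by either tool and 5 at an unadjusted p under 0.05. In contrast, 39 genes of ribosome biogenesis had a median of 0.25 and 83 ribosomal protein genes one of 0.40, with 0 calls in edgeR, 13 and 4 genes at an unadjusted p under 0.05, and 2 and 0 calls in DESeq2. Against 20 min, their medians were already 0.27 and 0.58 at 40 min and 0.22 and 0.67 at 60 min. Impdh2, which makes the first committed step of guanine nucleotide synthesis, was the only one of 21 nucleotide metabolism genes that rose in edgeR, from 331 and 343 to 494 and 486 CPM (0.54 ± 0.13, adjusted p = 0.0425), and Cad, which starts pyrimidine synthesis, lay at the threshold (0.66 ± 0.17, adjusted p = 0.0508). DESeq2 called 4 genes of this list higher, and 8 had an unadjusted p under 0.05 with a positive change.

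Zinc finger genes named Zfp, most of them repressors with a KRAB domain, leaned downward. Of 374 tested, 10 fell (2.67%, against 1.3% of protein-coding genes), 2 rose (0.535%, against 0.869%), 267 had a negative and 107 a positive change, and the median was -0.22, against 0.02 over all genes. Zfp354c had 37.7 and 34.3 CPM at 20 min and 20.7 and 20.9 CPM at 120 min (-0.79 ± 0.14, adjusted p = 0.00979), and Zfp346, which binds double-stranded RNA, 50.5 and 45.7 CPM and 30.9 and 32.0 CPM (-0.61 ± 0.11, adjusted p = 0.0115). Zfp420, Zfp2, Zfp326, Zfp383, Zfp493, Zfp595, Zfp819 and Zfp943 fell by 0.56 to 1.36 on the log2 scale. The genes that rose were Zfp750, an epidermal regulator, from 6.45 and 7.04 to 13.5 and 21.2 CPM (1.36 ± 0.25, adjusted p = 0.0111), and Zfp385a, from 25.6 and 32.8 to 41.8 and 53.6 CPM (0.71 ± 0.16, adjusted p = 0.031). Without replicate 4 of 120 min or replicate 3 of 20 min 0 Zfp genes were called lower, DESeq2 called 25, and in replicates 5 and 6 the median between 120 and 60 min was 0.10.

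Of the remaining lists, 21 genes of P-TEFb and transcription elongation had a median of 0.08, 23 mitotic regulators one of 0.18, 35 transcripts of secreted and membrane proteins one of 0.24, 54 replication-dependent histone genes one of 0.66 and 7 mitochondrial genes one of 0.34. In edgeR, 0 of their genes were called, with 6, 5, 10, 8 and 0 genes at an unadjusted p under 0.05 and 0, 1, 3, 1 and 0 calls in DESeq2. Histone mRNAs of this kind carry no poly(A) tail, and their summed level was 35.9 and 36.1 CPM at 20 min but 24.8 CPM in replicate 3 and 71.0 CPM in replicate 4 of 120 min, on opposite sides of the level at 20 min. The summed level of the mitochondrial genes was 9328 CPM in replicate 3 of 120 min and 4325 to 5321 CPM in the other 3 libraries.

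The pseudogenes that rose were nearly all processed pseudogenes, that is, copies of spliced mRNAs set back into the genome without introns. Of 1031 processed pseudogenes 135 rose and 4 fell, and the median of all of them was 0.90. Each pseudogene was aligned to the protein-coding transcripts of genes that passed the filter on low counts. Of 1251 pseudogenes, 1107 matched one, here called the parent, over at least 50% of their length at 80% identity or more. Equal scores were settled in favor of the parent with the higher level. Short stretches of 3 of them and of their parents show how alike they are. They are transcript sequences of the GENCODE M21 annotation of GRCm38, written 5′ to 3′ on the strand of the gene, and capitals mark the bases that differ. Hspd1-ps3 lies at chr11:41498821-41498880 on the plus strand, Eif4a-ps4 at chr1:60704406-60704465 on the plus strand and Impdh2-ps at chr8:100031389-100031448 on the plus strand, all 3 in a single pseudogene exon. The parents' stretches belong to the coding sequence.
Hspd1: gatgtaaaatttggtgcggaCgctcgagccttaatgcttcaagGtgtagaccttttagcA
Hspd1-ps3: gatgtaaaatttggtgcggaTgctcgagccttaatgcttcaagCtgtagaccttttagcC
Eif4a1: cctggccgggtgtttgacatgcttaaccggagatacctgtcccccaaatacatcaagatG
Eif4a-ps4: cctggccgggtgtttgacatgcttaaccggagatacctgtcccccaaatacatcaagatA
Impdh2: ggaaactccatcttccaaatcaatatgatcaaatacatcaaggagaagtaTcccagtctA
Impdh2-ps: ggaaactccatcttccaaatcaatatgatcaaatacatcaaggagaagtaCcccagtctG

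Counted from 1 at the 5′ end of each stretch, with the parent's base first, the differences are C21T, G44C and A60C between Hspd1 and its pseudogene, G60A between Eif4a1 and its pseudogene, and T51C and A60G between Impdh2 and its pseudogene. T51C is a difference of the kind that 4sU conversion itself produces in a read. Ppp1ccb had no difference at all from its parent Ppp1cc over 972 aligned bases. The study's methods name default parameters in the sentence on counting, under which HTSeq leaves out reads that align to several places. Whether they applied to the counts used here was not tested, so the levels of these pseudogenes are uncertain, and the values that follow describe counted reads rather than transcripts of the copy.

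Hspd1-ps3, whose parent encodes the mitochondrial chaperone HSP60, was at 3.51 and 3.04 CPM at 20 min and at 16.7 and 16.8 CPM at 120 min, with 5.30 to 7.57 CPM in the 4 libraries of 40 and 60 min (log2 fold change 2.36 ± 0.22, adjusted p = 0.000106). The groups lay far apart, and the count amounted to 0.375% of that of Hspd1 at 20 min and 1.29% at 120 min. Eif4a-ps4, a copy of the translation factor gene Eif4a1, had 19.3 and 24.7 CPM and then 44.5 and 53.8 CPM (1.15 ± 0.16, adjusted p = 0.00186), while its parent had a change of 0.32 (adjusted p = 0.308). Impdh2-ps rose from 8.10 and 9.93 to 25.9 and 20.3 CPM (1.35 ± 0.19, adjusted p = 0.00239), beside a rise of 0.54 for Impdh2. Ppp1ccb rose from 1.44 and 1.95 to 5.26 and 5.79 CPM (1.67 ± 0.27, adjusted p = 0.00522), and its parent, a catalytic subunit of protein phosphatase 1, had a change of -0.19 (adjusted p = 0.334). Tpm3-rs7, annotated as protein-coding but named as a sequence related to the tropomyosin gene Tpm3, rose from 1.24 and 1.93 to 7.92 and 6.08 CPM (2.09 ± 0.28, adjusted p = 0.00186) and is uncertain for the same reason.

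Over the 144 pseudogenes that rose and had a parent, the median change was 2.21 for the copies and 0.37 for the parents, and 1 parent, Impdh2, was itself called higher. These copies were selected for their rise. In the 959 not called, the medians were 0.72 for the copies and 0.29 for the parents, and 684 copies changed by more than the parent. The median identity was 98.2% in the 144, against 98.0% for the 959 that were not called, and 134 of the 144 reached 95% or more. Counts of the 144 were small beside those of the parents, with a median of 0.224% at 20 min and 0.873% at 120 min. All 146 pseudogenes that rose had a median level of 0.55 CPM at 20 min and 2.64 CPM at 120 min. The filter on low counts admitted genes through any of the nuclear libraries. How many of these entered through those of 120 min was not tested. Reads counted for pseudogenes carried more conversions than those of the parents, whether or not the pseudogene was called. The share of new RNA, the T-to-C rate of a gene divided by the conversion rate of its library, had medians of 0.715 and 0.595 in the copies that rose and 0.280 and 0.173 in their parents in the 2 libraries of 120 min. In copies not called the medians were 0.480 and 0.422, against 0.234 and 0.154 in their parents. In replicates 5 and 6 at 120 min, whose conversion rate was lower, it was 0.435 and 0.403 in the copies that rose and 0.204 and 0.188 in the parents. Grouped by the number of sites where the parent has T and the copy C, 9.76% of 338 copies without such a site rose, 14.6% of 589 with 1 to 5, 19.3% of 114 with 6 to 10 and 4.55% of 66 with 11 or more. T-to-C differences made up a median of 11.1% of substitutions in the copies that rose and 10.0% in those not called. The part of reads moving between copies in these counts was not tested. Among pseudogenes, 47 rose when genes had to reach 1 CPM in each of the 4 libraries, 19 without replicate 4 of 120 min, 14 without replicate 3 of 20 min, 92 without replicate 4 of 20 min and 8 with the 4 libraries alone. When protein-coding genes were filtered, scaled and tested alone, a setting chosen after the data were seen, 98 rose and 155 fell.

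**Figure D4:**
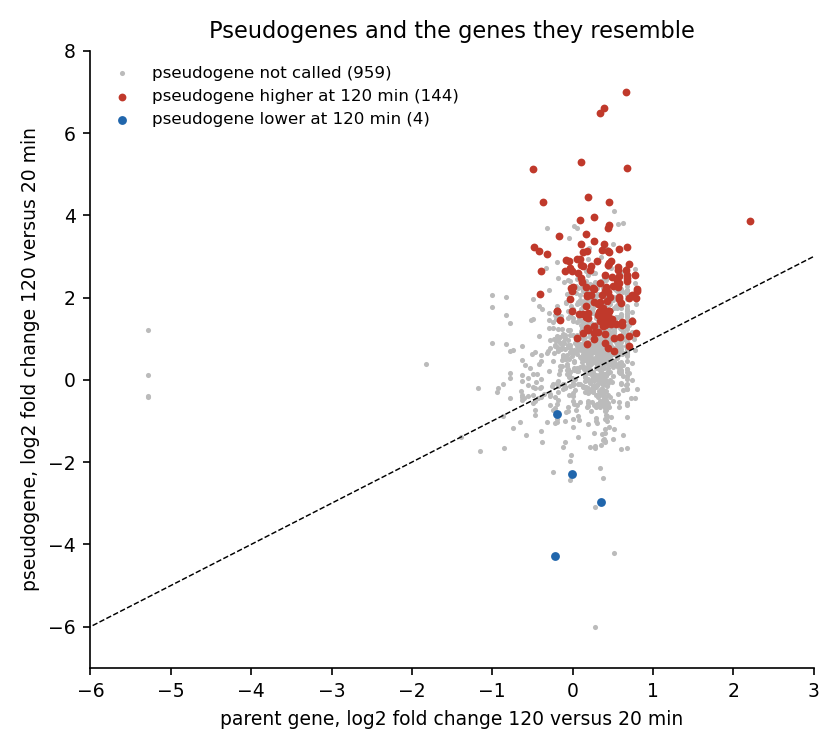
Log2 fold change between 120 and 20 min of each of 1107 pseudogenes (y axis) against that of the tested protein-coding gene it resembles most (x axis), with the line of equal change. All 144 pseudogenes that rose (red) lie above the line, at a median of 2.21 against 0.37 for their parents. They were selected for their rise, and 684 of the 959 not called lie above the line too.

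Among protein-coding genes the change was graded by turnover. The share of new RNA in the nucleus was taken from the libraries of 60 min of replicates 5 and 6, which enter neither side of the comparison, and 12568 protein-coding genes with a value were put into quintiles. From the lowest quintile (shares of 0 to 0.134) to the highest (0.396 to 1.37), the median log2 fold change was 0.29, 0.13, 0.02, -0.07 and -0.16. In the same order 42, 27, 7, 9 and 28 genes rose and 4, 17, 28, 49 and 80 fell, against 0.869% and 1.3% of all protein-coding genes. The median thus lay above 0 for slowly and below 0 for quickly renewed transcripts, while the genes that rose came from both ends. The p53 targets Plk2, Cdkn1a and Mdm2 belong to the upper end with shares of 0.698, 0.774 and 0.668, and the ribosomal protein genes with a median share of 0.069 to the lower end. Against 20 min, the medians of replicates 3 and 4 at 40 min already ran from 0.32 in the lowest to -0.12 in the highest quintile. At 60 min they ran from 0.33 to -0.16, so the gradient was about as wide at these times as at 120 min. All these comparisons share the 20 min libraries, and whether the gradient comes from those libraries was not tested. In replicates 5 and 6 the medians between 120 and 60 min ran the other way, from -0.09 in the lowest to 0.05 in the highest quintile. Since these 60 min libraries also set the quintiles, the values are not independent of them.

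**Figure D5:**
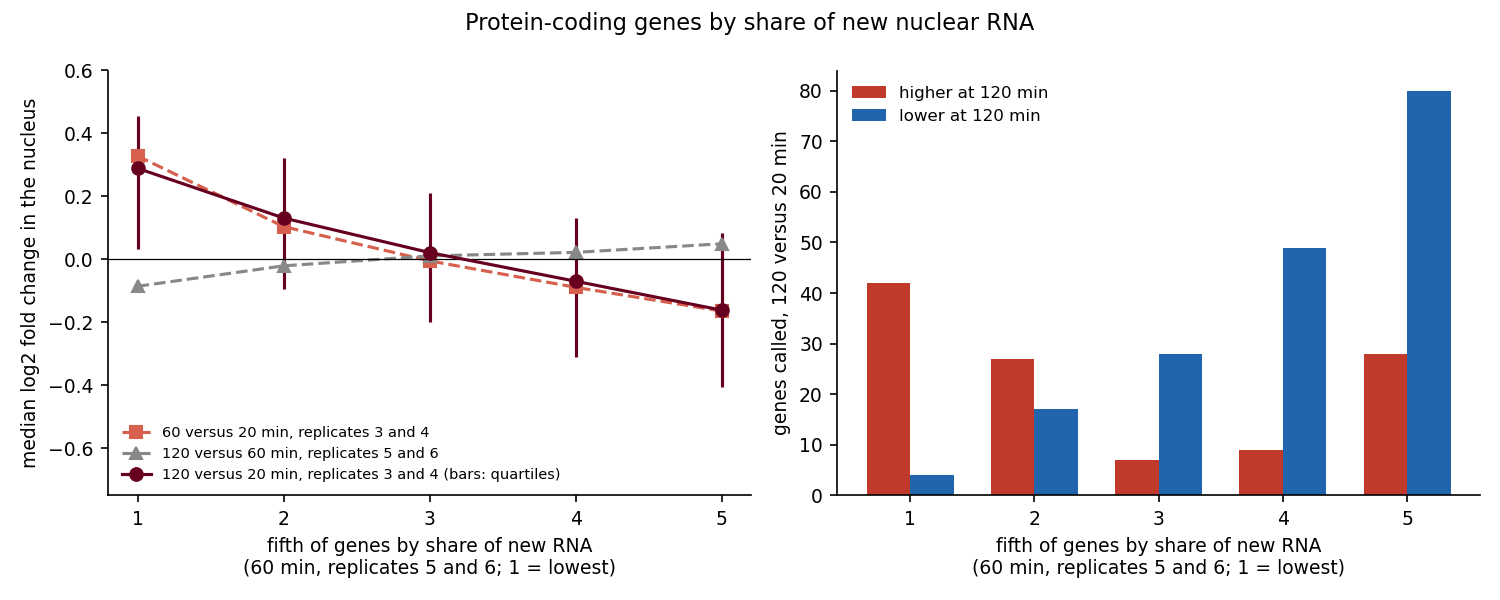
Left, median log2 fold change in the nucleus of protein-coding genes in quintiles by their share of new RNA, with quartiles as bars for 120 versus 20 min; 60 versus 20 min shares the 20 min libraries with it. Right, the number of genes that rose (red) or fell (blue) at 120 min in each quintile: genes that fell increase from 4 in the lowest to 80 in the highest.

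The base content of the transcript moved with the change as well. From the quintile with the lowest T content to that with the highest, the median change was 0.12, 0.10, 0.06, 0.00 and -0.10, and 12, 22, 22, 41 and 81 genes fell. Within the highest quintile of new RNA, the median was 0.03 for the 390 genes of the lowest T content and -0.40 for the 529 genes of the highest, of which 38 fell. Protein-coding genes that fell had a median T content of 27.6% and a median exon length of 5090 bases, those that rose 23.7% and 3694 bases, and those not called 24.5% and 4355 bases. Genes that fell were also the more nuclear ones, with a median log2 ratio of nuclear to cytosolic CPM of 0.34 at 60 min in replicates 5 and 6, against -0.42 in those that rose and -0.05 in the rest. Whether the T content acts through the number of converted bases per read was not tested.

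Intronic T counts gave a second readout of the same 4 libraries, though reads that cross an exon border may enter both readouts. Whether the intronic signal stems from transcripts not yet spliced was not tested. T positions sequenced in introns were tested in 20294 genes, of which 219 rose (1.08%) and 391 fell (1.93%), or 3.01% together. Of the genes that rose by read counts, 121 could be tested in introns, where 27 rose and 0 fell. Among those that fell by read counts it was 50 and 0 of 204. The 27 shared rises are 9.75% of the calls by reads and 12.3% of those by introns, and the 50 shared falls are 20.7% and 12.8%. Lsmem1, with 3.97 and 2.49 intronic CPM at 20 min and 29.8 and 34.2 CPM at 120 min (3.31 ± 0.44, adjusted p = 0.000999), and Ska2, with 104 and 100 and then 41.9 and 37.4 intronic CPM (-1.36 ± 0.20, adjusted p = 0.00189), were among the clearest calls in both.

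Further strong intronic rises were those of Cd81, a tetraspanin, from 93.2 and 113 to 288 and 425 CPM (1.79 ± 0.19, adjusted p = 7.82e-05), and of Lpin1, a phosphatidate phosphatase of lipid synthesis, from 72.4 and 61.1 to 212 and 267 CPM (1.84 ± 0.21, adjusted p = 0.000206). Lpin1 rose by read counts too (0.87 ± 0.16, adjusted p = 0.0127), whereas Cd81 did not pass there (0.51 ± 0.17, adjusted p = 0.0985). The long intergenic RNA Gm31718 had 507 and 2225 intronic T counts at 20 min and 10429 and 16946 at 120 min, and it rose in introns and reads alike. So did 1700007K13Rik, with 30.2 and 33.3 intronic CPM at 20 min and 82.8 and 106 CPM at 120 min (1.57 ± 0.21, adjusted p = 0.00114). Prdx1, a peroxiredoxin, had the smallest p among intronic falls, from 377 and 361 to 134 and 87.2 CPM (-1.74 ± 0.23, adjusted p = 0.000999), without a fall of its reads (0.37 ± 0.27, adjusted p = 0.44). Emc4, a subunit of an insertase of the endoplasmic reticulum, and Orc6, a subunit of the origin recognition complex, fell in introns by 1.27 ± 0.18 and 1.22 ± 0.17 on the log2 scale. Their reads had changes of -0.29 (adjusted p = 0.205) and -0.50 (adjusted p = 0.073). Gm14027 had 146 and 597 intronic T counts at 20 min and 0 in both libraries of 120 min (adjusted p = 0.00182).

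Of 33 tested p53 targets, 8 rose and 1 fell in introns, against 1.08% and 1.93% of all genes. Besides Plk2, Mdm2, Cdkn1a, Phlda3 and Ddit4l these were Trp73, Perp and Tnfrsf10b, named here after their values were seen, and Ddb2 fell. The introns of Mdm2 had 495 and 446 CPM at 20 min and 1174 and 1203 CPM at 120 min (1.34 ± 0.21, adjusted p = 0.00213). Of 20 pluripotency factors 6 fell in introns and 0 rose. They were Prdm14, Nr0b1, Nanog, Zfp42, Klf2 and Dppa2, again named after their values were seen. Nanog introns went from 396 and 404 to 246 and 185 CPM (-0.89 ± 0.17, adjusted p = 0.00866) and Nr0b1 introns from 66.5 and 57.7 to 19.0 and 13.2 CPM (-1.95 ± 0.33, adjusted p = 0.0037), while the reads of Nanog had a change of -0.25 ± 0.14. Of 20 genes of SR proteins and Clk kinases, 4 fell in introns and 0 rose, with a median of -0.60. They were Srsf11, Clk4, Rsrp1 and, named after its values were seen, Srsf7. The introns of Srsf11 went from 887 and 675 to 317 and 186 CPM (-1.63 ± 0.29, adjusted p = 0.00565). Introns of 28 of 367 Zfp genes fell and those of 5 rose. The number of intronic calls was 1505 without replicate 3 of each time and 567 without replicate 4.

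The same 2 times were also compared in whole cells, cytosol and membranes of the same cultures. In a fit of all 72 libraries, 809 of 18902 genes (4.28%) were called in nuclei, 2.42% higher and 1.86% lower, while cytosol had 126 calls (0.667%), membrane 80 (0.423%) and whole-cell RNA 150 (0.794%). The difference of the change between the nucleus and another fraction reached 0 calls for each of the 3, with 1420, 1390 and 778 genes at an unadjusted p under 0.05, so that no gene was shown to change in the nucleus alone. The genes closest to a difference from the cytosol were Usp11, a deubiquitinase with a nuclear change of -0.62 and a cytosolic one of 0.41 (difference -1.04 ± 0.20, adjusted p = 0.0804), Cd99l2 with 0.09 and -1.63, Cbx7 with -0.83 and 0.06 (difference -0.89 ± 0.18, adjusted p = 0.0804), Srsf11 with -0.94 and 0.08 (difference -1.02 ± 0.22, adjusted p = 0.138) and Dnah1, a dynein heavy chain, with -1.05 and 1.69. Impdh2-ps with 1.32 and 0.01 (difference 1.31 ± 0.26, adjusted p = 0.0926) came first for the membrane fraction, followed by Usp11, 1700086P04Rik, Polr3gl and 1700013H16Rik (adjusted p = 0.0926 to 0.14). For whole cells the smallest p belonged to 2810403D21Rik, Unc5a, Gm43360, Gm1840 and Gm44775, each with an adjusted p of 1.0. With each culture as a block, 14 genes were called for the cytosol and 3 for the membrane fraction.

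Genes that rose in the nucleus by read counts had a median change of 0.56 (cytosol), 0.57 (membrane fraction) and 0.69 (whole cells), and those that fell one of -0.33, -0.35 and -0.52. Medians over all genes tested were 0.00, -0.04 and -0.03. These fractions come from the same cells, so they are no independent cultures. Plk2 had 1.19, 0.95 and 1.30, and Slc38a2 had -0.61, -1.29 and -1.21. Polr3gl (-0.12, 0.23 and -0.27) and Cbx7 (0.06, -0.08 and -0.40) had small values outside the nucleus, beside falls of more than 0.8 within it.

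Within replicates 3 and 4, 40 versus 20 min and 60 versus 20 min had 0 calls each in edgeR, with 3091 and 3454 genes at an unadjusted p under 0.05. Both share the 20 min libraries with the comparison above and give its genes side by side only. Protein-coding genes that rose at 120 min (median 0.67) had medians of 0.43 at 40 min and 0.45 at 60 min, and those that fell (-0.79) had -0.37 and -0.45. Some list medians were at least as far from 0 at 40 min as at 120 min. Heat shock genes had 0.60, 0.47 and 0.41 at 40, 60 and 120 min. In this order, nuclear long noncoding RNAs had -0.50, -0.43 and -0.44, and hosts of small nucleolar RNAs -0.60, -0.19 and -0.52. Targets of p53 had 0.13, 0.13 and 0.29, and SR and Clk genes -0.29, -0.32 and -0.42. All tested other noncoding genes had -0.48, -0.30 and -0.26. In the libraries of replicates 5 and 6, 223 of the 277 genes that rose had a positive change between 60 and 120 min, with a median of 0.21, against 8957 of 17810 and a median of 0.00 over all genes. For the 241 that fell it was 132 with a negative change and a median of -0.02.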

How the data were processed

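Poly(A) RNA of fractionated E14TG2a cells was sequenced after 4sU labeling, and libraries were grouped by fraction, time and replicate from the labels. Per the labels and methods, the authors aligned reads with STAR 2.7.6 to GRCm38 with Gencode M14 and deposited HTSeq 0.11.1 counts of reads in exons per gene, not normalized. Rows naming no gene held 39.9% to 48.8% of reads in the 4 libraries and were left out. The authors also deposited counts of T positions and T-to-C mutations per gene, the conversion rate of each library as a fraction, and the ratio of mutation rate to conversion rate, the share of new RNA, which can exceed 1. Variants found in unlabeled samples had been excluded from the mutation counts. No file held pooled replicates.

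Read counts of all 18 nuclear libraries were fitted with edgeR 4.0.16 (R 4.3.3; filterByExpr, TMM, quasi-likelihood test, 9 groups of 2, 9 residual degrees of freedom), Benjamini-Hochberg adjusted over all genes tested and called where this p was under 0.05 and the log2 fold change beyond 0.5 in either direction. Intronic T counts and all 72 libraries (36 groups) were fitted likewise. T counts of 1 read are not independent, which the estimated spread takes up. Shares were used from 400 T counts on, and the nuclear to cytosolic ratio used 0.5 CPM as pseudocount. P-values measure the spread between 2 cultures per group of 1 line. In the 6 nuclear groups of replicates 3 to 6, the 2 libraries differed far beyond sampling noise (chi-square per degree of freedom 12.7 to 80.8), so that neither was the other sequenced again. That they were separate cultures rests on the study's description. Pseudogenes were aligned with BLAST 2.17.0 to transcripts of the annotation at hand (GENCODE M21), which matched 51633 of 51826 genes. Named are the 12 called genes with a symbol other than a predicted model and the smallest p per direction, up to 4 members with the smallest p per list, Kantr, 5 genes per direction for introns and 5 per fraction comparison, besides list members that were called. Members, lists and rules were chosen with earlier results of these data known. The scripts were tested on simulated data. Alternatives were DESeq2 1.42.0, other scalings, filters, sets of libraries, a replicate block and each library left out.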

Additional observations from a re-analysis of the deposited data

How the results depend on the processing

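Against 518 genes called, DESeq2 size factors gave 513, upper-quartile scaling 524, leaving out mitochondrial genes 524, no fold limit 528 and a minimum of 1 CPM in all 4 libraries 366. Larger shifts came with DESeq2 (975), no filter on low counts (1242), protein-coding genes alone (253, chosen after the data were seen), the 4 libraries compared alone (13) and the 8 libraries of replicates 3 and 4 (11). These 2 smaller fits have 2 and 4 residual degrees of freedom. The standard deviation of the log2 difference between the 2 libraries was 0.42 at 20 min and 0.45 at 120 min in replicates 3 and 4. It was 0.36 at 40 min and 0.56 at 60 min there. In replicates 5 and 6 it was 0.30 at 60 min and 0.23 at 120 min. The SE and adjusted p of nuclear read counts come from the fit of all nuclear libraries, which pools the spread of all groups. Whether this makes them too small for the comparison was not tested. Leaving out 1 library or replicate gave 27 to 736 calls. For introns, against 610 calls, leaving out a replicate gave 567 to 1505. Tests of differences between fractions gave 1 to 2 calls for the cytosol and 0 to 3 for the membrane fraction without replicate 3 or 4, and 0 for whole cells throughout. All 55 called genes that are named kept their direction in every alternative that gave them a value (14 to 16 of 17), and 3 (Hspd1-ps3, Lsmem1 and AI480526) kept their call in all of these. The alternatives reuse the libraries from which these genes were called. A kept direction is therefore favoured by the choice and is no separate support.

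Replicate numbers are shared between times, but no label says that they mark a batch. Deviations from the group means correlated at 0.29 between 20 and 120 min with 2 pairs, and at -0.09 to 0.57 between other times of replicates 3 and 4. With the replicate number as a block 1803 genes were called by reads, all 518 among them, 1809 by introns, and with a block by culture 14 genes for the cytosol, 3 for the membrane fraction and 0 for whole cells. The cause of these shifts was not tested. Depth limits low genes most, such as Lsmem1 with 4 and 6 reads at 20 min.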
